A study of Mus musculus with 12 samples.

Results

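Tuft cells are rare chemosensory cells of the epithelium, and 9 genes that mark them were followed in the colonic mucosa of mice: Dclk1, Trpm5, Pou2f3, Gfi1b, Avil, Alox5, Ptgs1, Sh2d6 and Plcg2. They were chosen by gene symbol, with no measured value in the rule. All 9 were found among 38087 genes with an Ensembl identifier, and 8 passed the filter on low counts that left 13889 genes for testing. Gfi1b did not pass it. Messenger RNA was sequenced from 12 samples of colonic mucosa, 6 Sgo1-/+ and 6 wild type. Sgo1 encodes shugoshin 1, which protects the cohesion of sister chromatids at the centromere, and the study concerned chromosome instability in the colon. Both genotypes had been exposed to the carcinogen azoxymethane (4 mg/kg, 2 doses weekly, started at 8 weeks of age and stopped at 12 weeks) and were sampled when 9 months old, so that no sample was free of carcinogen. The sources used here give the allele only as a genotype label. Whether the 6 samples of a genotype are 6 mice is not stated, and p-values therefore measure the spread among samples.

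Tuft cells arise from crypt progenitors under the transcription factor Pou2f3. They sense luminal signals through a taste-like cascade that ends in opening of the cation channel Trpm5, and they release interleukin 25, leukotrienes, prostaglandins and acetylcholine. In the small intestine of mice they drive a type 2 immune circuit against parasites. In bulk mucosa, fewer tuft cells and less of a transcript per tuft cell cannot be told apart.

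The libraries held 6029276 to 10198304 counts in Sgo1-/+ and 5711553 to 9000763 counts in wild type. Rows that resemble mitochondrial transcripts took 11.6% to 41.7% of the counts in Sgo1-/+ and 15.8% to 42.6% in wild type. Their share was highest in 3 libraries, Sgo1-/+ replicate 3 with 41.7% and wild type replicates 3 and 5 with 42.6% and 40.7%. Levels below are in CPM, that is, counts scaled to TMM-adjusted library size, and a log2 change is Sgo1-/+ over wild type. Sgo1 itself, listed as Sgol1, averaged 2.33 ± 0.41 CPM in Sgo1-/+ and 3.65 ± 1.79 CPM in wild type (SD, n = 6 each). Mean log2 CPM differed by -0.49, which an exact two-sided permutation test did not separate from 0 (p = 0.126). The edgeR log2 change was -0.67 ± 0.31 (SE; unadjusted p = 0.0483, adjusted p = 0.517). Wild type replicate 1, at 1.49 CPM, was the lowest library of all for Sgo1, and without it the difference was -0.69 (exact two-sided permutation p = 0.00649). Wild type replicate 2, at 6.80 CPM, was the highest, and without it the difference was -0.29 (exact two-sided permutation p = 0.251). Epithelial markers were present: the list (9 of 9 genes tested) summed to 7459 to 8513 CPM in Sgo1-/+ and 6860 to 9082 CPM in wild type.

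Of the 8 tuft cell genes tested, 0 passed an adjusted p of 0.05 in edgeR, as did 0% of all 13889 genes. At an unadjusted p under 0.05 the 2 members Dclk1 and Avil were lower in Sgo1-/+, and 0 members were higher. The same holds for 9.65% of all genes tested, with 5.08% lower and 4.56% higher. Of the 8 members 2 had a log2 change above 0 and 6 below, with a median of -0.16, against -0.0056 over all genes tested. The CPM ranges of the genotypes overlapped for each of the 8 members. Over all genes tested they did not overlap for 0.346%, with 0.122% lower and 0.223% higher in Sgo1-/+. DESeq2 called 0.217% of the genes it gave an adjusted p, and limma-voom called 0%, with 10.2% of genes at an unadjusted p under 0.05 in each. Over all the alternative analyses no member was called. The smallest adjusted p that any member reached was 0.179, for Dclk1, and the range for Dclk1 ran from 0.179 to 0.984.

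**Figure D1:**
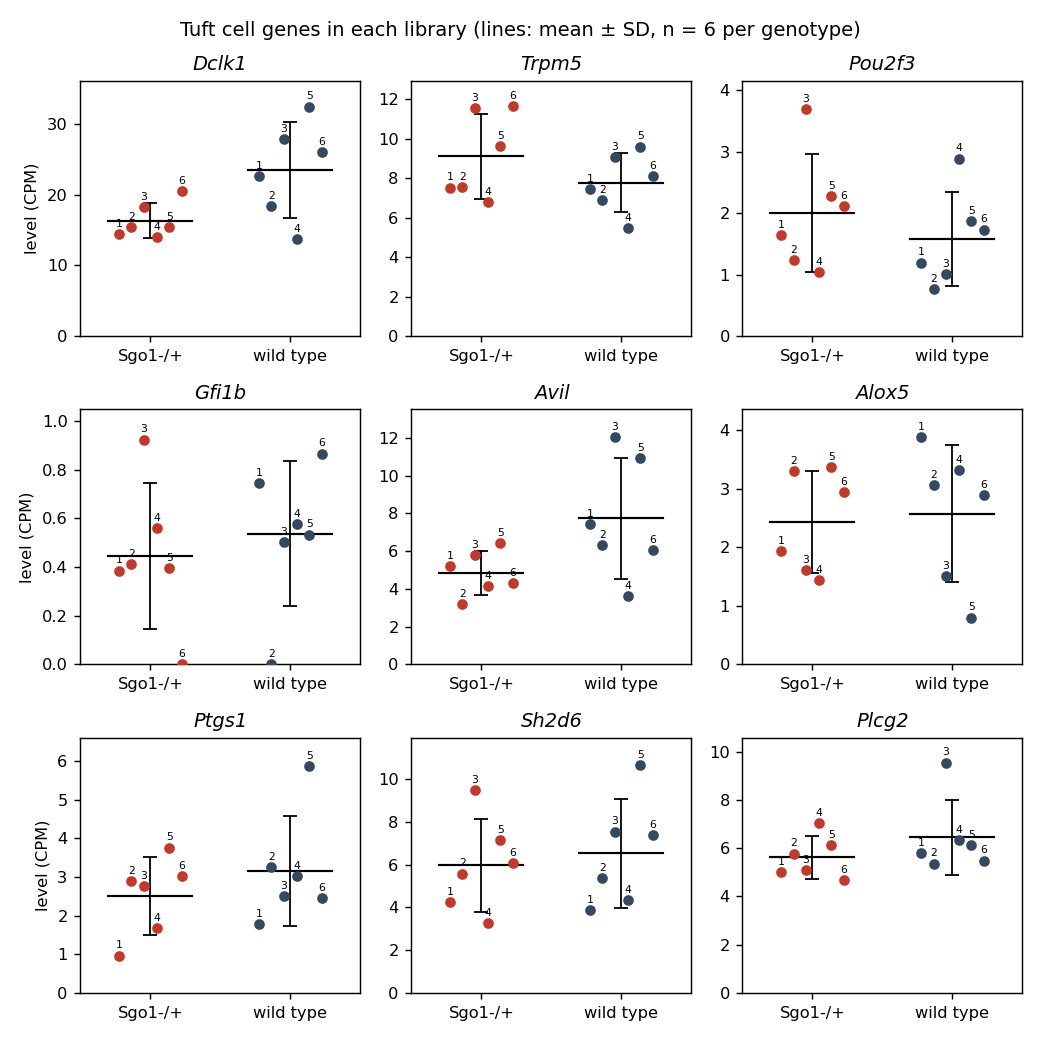
Level in CPM (y axis, linear from 0) of each tuft cell gene in the 6 Sgo1-/+ libraries (red) and the 6 wild type libraries (blue), numbered by replicate, with the mean (line) and SD (bar). The Sgo1-/+ points of Dclk1 lie between 14.0 and 20.6 CPM and those of wild type between 13.7 and 32.5 CPM, and the groups overlap for every gene.

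Dclk1, doublecortin-like kinase 1, is a microtubule-associated kinase and the most used marker of tuft cells in the mouse gut. The gene (ENSMUSG00000027797) lies on the plus strand of chromosome 3, from 55242526 to 55539064 in build mm10. In Sgo1-/+ the lowest, median and highest levels were 14.0, 15.5 and 20.6 CPM, against 13.7, 24.4 and 32.5 CPM in wild type. All 6 Sgo1-/+ libraries lay below the wild type median and 4 wild type libraries lay above the highest Sgo1-/+ library, while wild type replicate 4 lay below the lowest. The mean was 16.4 ± 2.53 CPM in Sgo1-/+ and 23.5 ± 6.79 CPM in wild type (SD, n = 6 each), resting on 78.8 to 224 counts in Sgo1-/+ and 95.4 to 192 counts in wild type. The log2 change was -0.52 ± 0.19 (SE), for which edgeR gave an unadjusted p of 0.0160 (adjusted p = 0.486). Of all genes tested, 9.59% had a lower log2 change. With any 1 library left out the log2 change stayed between -0.64 and -0.41, and the unadjusted p was under 0.05 in 12 of 12 such fits. Both wild type libraries rich in mitochondrial-like rows were the highest for Dclk1, at 27.9 and 32.5 CPM, and the Sgo1-/+ one stood at 18.2 CPM. Without these 3 libraries the log2 change was -0.32 ± 0.19 (unadjusted p = 0.121).

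Avil encodes advillin, an actin-binding protein of the villin family that is found in tuft cells and sensory neurons. It lies on chromosome 10, plus strand, from 127000709 to 127020994 (mm10, ENSMUSG00000025432). The lowest, median and highest levels were 3.20, 4.76 and 6.44 CPM in Sgo1-/+, against 3.61, 6.89 and 12.1 CPM in wild type. Here too 6 of 6 Sgo1-/+ libraries lay below the wild type median, with 3 wild type libraries above the highest Sgo1-/+ library. The mean was 4.85 ± 1.18 CPM in Sgo1-/+ and 7.74 ± 3.19 CPM in wild type (SD, n = 6 each). The log2 change of -0.66 ± 0.28 (SE) came with an unadjusted p of 0.0325 (adjusted p = 0.500) in edgeR. It ranged from -0.81 to -0.49 with 1 library left out, with an unadjusted p under 0.05 in 7 of 12 such fits. Wild type replicates 3 and 5 held 12.1 and 10.9 CPM, Sgo1-/+ replicate 3 held 5.77 CPM, and the log2 change without these 3 libraries was -0.32 ± 0.26.

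Trpm5, the calcium-activated cation channel that depolarises tuft and taste cells, lies on the minus strand of chromosome 7, from 143069153 to 143094642 (mm10, ENSMUSG00000009246). The lowest, median and highest levels were 6.80, 8.57 and 11.7 CPM in Sgo1-/+, against 5.48, 7.77 and 9.60 CPM in wild type. Sgo1-/+ replicates 3 and 6 lay well above every wild type library, Sgo1-/+ replicate 5 stood level with the highest wild type library at 9.60 CPM, and the others lay within the wild type range. The mean was 9.11 ± 2.14 CPM in Sgo1-/+ and 7.76 ± 1.49 CPM in wild type (SD, n = 6 each). The log2 change was 0.23 ± 0.19 (SE), with an adjusted p of 0.703 in edgeR, and 83.2% of all genes tested had a lower one. With 1 library left out it ranged from 0.15 to 0.32.

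Windows of 250 bases upstream of annotated starts are shown for Dclk1, Trpm5 and Avil, from RefSeq in build GRCm38.p6. Each is written 5′ to 3′ along the strand of its gene. These genes were picked for their values in these data, and none of them was called between the genotypes. Dclk1 has 2 annotated starts in that table, and the window of each is given. Capitals mark a match to AATCACNGC, the core letters bound by the repressor family of Gfi1 and Gfi1b, on the opposite strand.
Dclk1, first start, chr3:55242114-55242363, plus strand: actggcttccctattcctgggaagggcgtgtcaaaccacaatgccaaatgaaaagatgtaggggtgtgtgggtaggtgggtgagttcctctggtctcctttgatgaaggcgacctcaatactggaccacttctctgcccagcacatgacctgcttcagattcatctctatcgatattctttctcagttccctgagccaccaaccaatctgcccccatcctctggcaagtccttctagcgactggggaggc
Dclk1, second start, chr3:55461478-55461727, plus strand: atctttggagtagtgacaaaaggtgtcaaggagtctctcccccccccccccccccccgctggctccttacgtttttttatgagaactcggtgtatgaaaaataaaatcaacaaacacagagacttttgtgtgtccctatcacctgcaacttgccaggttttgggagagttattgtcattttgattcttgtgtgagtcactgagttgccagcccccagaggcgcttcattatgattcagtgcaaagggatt
Trpm5, chr7:143094643-143094892, minus strand: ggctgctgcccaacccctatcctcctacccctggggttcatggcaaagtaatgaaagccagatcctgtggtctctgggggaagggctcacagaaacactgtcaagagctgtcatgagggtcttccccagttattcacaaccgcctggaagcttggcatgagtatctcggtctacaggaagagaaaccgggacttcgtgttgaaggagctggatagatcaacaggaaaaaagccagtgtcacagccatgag
Avil, chr10:127000459-127000708, plus strand: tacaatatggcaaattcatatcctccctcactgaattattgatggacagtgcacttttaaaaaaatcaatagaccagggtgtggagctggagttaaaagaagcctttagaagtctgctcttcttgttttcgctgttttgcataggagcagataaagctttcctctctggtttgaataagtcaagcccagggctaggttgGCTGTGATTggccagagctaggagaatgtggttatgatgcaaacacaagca
The octamer ATGCAAAT, the letters that POU2F factors such as Pou2f3 bind, was searched on both strands of 9 windows from 8 of the tuft cell genes and was found in 0, against 1.60% of the 32851 windows in the table. The Gfi1-family letters were found in 1 window, that of Avil at position -51 counted from the start, against 0.776% of all windows. Neither count bears on whether a factor binds.

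Dclk1 and Trpm5 were also set against each other inside each library, where scaling to library size cancels. The lowest, median and highest ratios of Dclk1 CPM to Trpm5 CPM were 1.58, 1.84 and 2.06 in Sgo1-/+, against 2.50, 3.06 and 3.39 in wild type. The 2 sets of ratios did not overlap. Their means were 1.83 ± 0.21 in Sgo1-/+ and 2.99 ± 0.34 in wild type (SD, n = 6 each). In log2 the ratio was 0.85 ± 0.16 in Sgo1-/+ and 1.54 ± 0.17 in wild type, a difference of -0.69. This pair was singled out after the values were seen, as the 1 of 28 pairs of members whose ratios did not overlap, and no p is given for it. Among ratios of all pairs of genes tested 0.421% did not overlap, and among ratios of Dclk1 to another gene 0.770%.

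Because the pair was chosen for ratios that do not overlap, they must also separate in any subset of the libraries, and the values of subsets are given as a description. In the 3 libraries rich in mitochondrial-like rows the ratio was 1.58 in Sgo1-/+ replicate 3, against 3.08 and 3.39 in wild type replicates 3 and 5. The raw columns of 4 libraries carry a suffix in their headers whose meaning the sources used here do not give. In these the ratio was 1.61 and 1.76 in Sgo1-/+ replicates 5 and 6, against 3.04 and 3.23 in wild type replicates 1 and 6. Trpm5 took 16.6% to 21.1% of the summed CPM of the 9 genes in Sgo1-/+ and 12.2% to 14.0% in wild type. This share in part restates the chosen ratio, since Dclk1 is in the sum, and ratios of Trpm5 to another gene did not overlap for 0.655% of genes. The Dclk1 share of 28.3% to 37.1% in Sgo1-/+ overlapped that of 31.7% to 42.8% in wild type. Avil stood to Trpm5 as 0.545 ± 0.133 in Sgo1-/+ and 0.966 ± 0.249 in wild type, with overlap. The exons of Dclk1, Trpm5 and Avil share 0.745%, 3.44% and 4.86% of their bases with genes on the opposite strand in GENCODE M21, and the sources used here do not say whether the counting used strand.

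Pou2f3, the POU-domain factor that specifies tuft cells, lies on chromosome 9, minus strand, from 43122628 to 43210369 (mm10). Its lowest, median and highest levels were 1.04, 1.87 and 3.70 CPM in Sgo1-/+, against 0.766, 1.46 and 2.88 CPM in wild type. Its highest library was Sgo1-/+ replicate 3 and its lowest wild type replicate 2, and the groups overlapped. The log2 change was 0.30 ± 0.39 (SE, edgeR adjusted p = 0.816) and stood at 0.083 when Sgo1-/+ replicate 3 was left out and at 0.58 when wild type replicate 4 was. Gfi1b, a zinc-finger repressor shared by tuft cells and the erythroid and megakaryocyte lineages, lies on chromosome 2, minus strand, from 28609450 to 28621982 (mm10). It was near the limit of detection, with 0.5 to 7 counts a library in Sgo1-/+ and 0.5 to 6 in wild type. The mean was 0.446 ± 0.299 CPM in Sgo1-/+ and 0.537 ± 0.298 CPM in wild type (SD, n = 6 each). In the fit without a filter its log2 change was -0.28 ± 0.65, so that no difference was detectable at this depth.

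Both eicosanoid enzymes among the members varied widely between libraries of 1 genotype. Alox5, arachidonate 5-lipoxygenase, makes the leukotriene precursor and lies on chromosome 6, minus strand, from 116410077 to 116461178 (mm10). Its lowest, median and highest levels were 1.44, 2.43 and 3.37 CPM in Sgo1-/+, against 0.800, 2.98 and 3.88 CPM in wild type. The wild type libraries enclosed those of Sgo1-/+, and the log2 change was -0.12 ± 0.34 (SE, edgeR adjusted p = 0.927). Ptgs1, the cyclooxygenase 1 that makes the prostaglandin precursor, lies on chromosome 2, plus strand, from 36230426 to 36252272 (mm10). Its lowest, median and highest levels were 0.964, 2.83 and 3.76 CPM in Sgo1-/+, against 1.79, 2.77 and 5.87 CPM in wild type. Wild type replicate 5 stood above the rest, the log2 change was -0.31 ± 0.35 (SE, edgeR adjusted p = 0.786), and it was -0.07 without that library. In the 4 libraries with the suffix the log2 change of Ptgs1 was 0.66, and in the 8 others it was -0.82.

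Sh2d6 and Plcg2 belong to intracellular signalling. Sh2d6 encodes an SH2-domain protein and lies on chromosome 6, minus strand, from 72513644 to 72521634 (mm10). Its lowest, median and highest levels were 3.28, 5.81 and 9.47 CPM in Sgo1-/+, against 3.88, 6.36 and 10.7 CPM in wild type. The highest library of each genotype was one of the 3 rich in mitochondrial-like rows, and the log2 change was -0.13 ± 0.29 (SE, edgeR adjusted p = 0.901). Plcg2, phospholipase C gamma 2, releases inositol trisphosphate downstream of tyrosine kinases and lies on chromosome 8, plus strand, from 117498291 to 117635140 (mm10). Its lowest, median and highest levels were 4.68, 5.43 and 7.04 CPM in Sgo1-/+, against 5.36, 5.97 and 9.55 CPM in wild type. Of the Sgo1-/+ libraries 3 lay below every wild type library, wild type replicate 3 lay above the rest, and the log2 change was -0.18 ± 0.19 (SE, edgeR adjusted p = 0.754) and -0.05 when that library was left out.

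**Figure D2:**
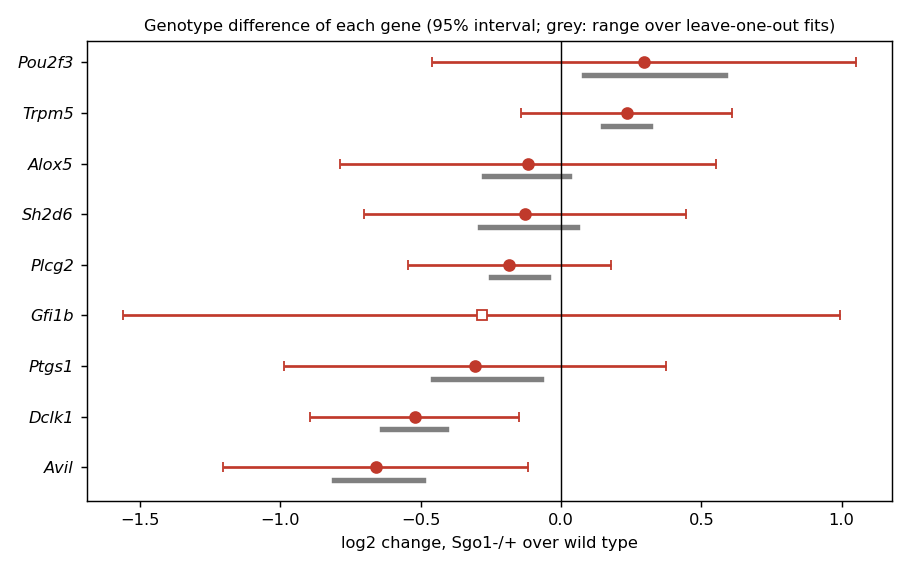
Log2 change of each tuft cell gene, Sgo1-/+ over wild type (x axis), with its 95% interval from the SE (red) and the range over the 12 fits that leave out 1 library (grey). The open square is Gfi1b, from the fit without a filter, and the intervals of Dclk1 and Avil are the ones that lie below 0.

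Set by level per length, Sh2d6 came first among the members. It averaged 3.69 ± 1.35 CPM per kilobase of exon over the 12 libraries, followed by Avil at 1.85 ± 0.81, Plcg2 at 1.40 ± 0.30, Trpm5 at 1.32 ± 0.30 and Dclk1 at 1.30 ± 0.40. Ptgs1 at 0.730 ± 0.315, Alox5 at 0.610 ± 0.240, Pou2f3 at 0.579 ± 0.278 and Gfi1b at 0.269 ± 0.158 CPM per kilobase came last. Sh2d6 was above Avil in 12 of 12 libraries, Dclk1 above Ptgs1 in 12 and Pou2f3 above Gfi1b in 11. Avil was above Plcg2 in 9, Plcg2 above Trpm5 in 7, Trpm5 above Dclk1 in 6, Ptgs1 above Alox5 in 7 and Alox5 above Pou2f3 in 8, so these neighbours did not differ beyond their spread. Dclk1 led in CPM and stood behind 4 others per kilobase, over annotated exons of 15296 bases. Exon lengths are from GENCODE M21, which need not be the annotation behind the counts.

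**Figure D3:**
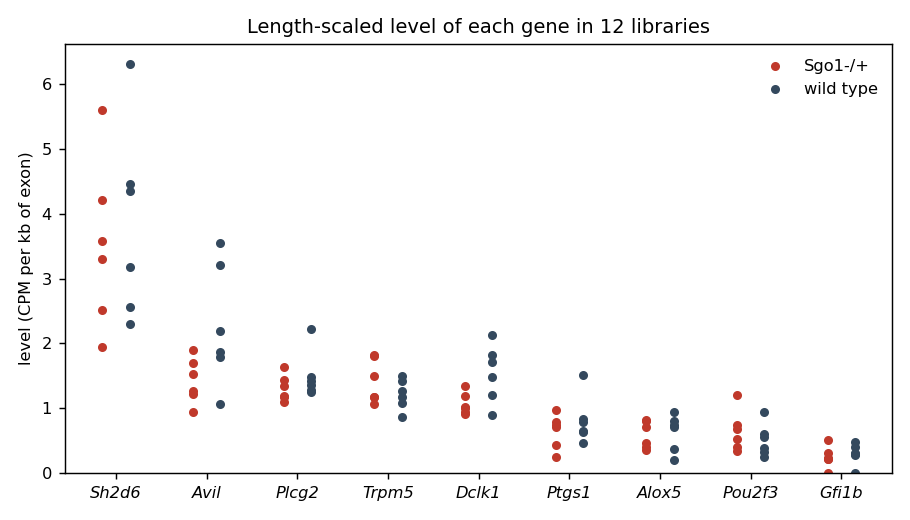
Level in CPM per kilobase of exon (y axis) of each tuft cell gene in the Sgo1-/+ (red, left) and wild type (blue, right) libraries, ordered by the mean over all 12. Sh2d6 averages 3.69 and stands apart, the next 4 genes lie between 1.30 and 1.85, and Gfi1b is lowest at 0.269.

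Some of the members varied together between libraries of 1 genotype. Correlations were computed on log2 CPM with the genotype means removed, over 12 libraries and 28 pairs of the 8 genes tested, with p from 100000 permutations adjusted over the pairs. Dclk1 and Trpm5 gave a Pearson r of 0.877 (permutation p = 8e-05, adjusted p = 0.00224) and a Spearman rho of 0.846 (permutation p = 0.00092, adjusted p = 0.0258). Without the 2 libraries farthest from the median of Dclk1 the r was 0.846, and within the genotypes it was 0.909 in Sgo1-/+ and 0.990 in wild type. Trpm5 and Sh2d6 gave an r of 0.819 (permutation p = 0.00194, adjusted p = 0.0272) and a rho of 0.790 (permutation p = 0.00296, adjusted p = 0.0414). Without the 2 farthest libraries that r was 0.736, and it was 0.836 within Sgo1-/+ and 0.808 within wild type. These 2 pairs passed an adjusted p of 0.05. Of the 13888 other genes tested, 0.0432% were at least as close to Dclk1 as Trpm5 was, and 0.302% were at least as close to Trpm5 as Sh2d6 was.

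The 3 libraries rich in mitochondrial-like rows bear on these correlations. Without them 0 pairs passed, over 9 libraries, with r at 0.858 for Dclk1 and Trpm5 and at 0.676 for Trpm5 and Sh2d6. Within the 8 libraries without the suffix the 2 values were 0.880 and 0.946. Over all 28 pairs the r was above 0 in 16 and below 0 in 12, with a median of 0.09, and it ran from -0.58 for Avil and Alox5 to 0.88 for Dclk1 and Trpm5. Alox5 had an r below 0 with each of the 7 other members over 12 libraries. Without the 3 rich libraries its r was above 0 with 6 of them, from 0.06 with Avil to 0.62 with Ptgs1, and -0.27 with Plcg2. Without those libraries Dclk1 and Avil gave 0.46, and Avil and Sh2d6 gave 0.20.

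**Figure D4:**
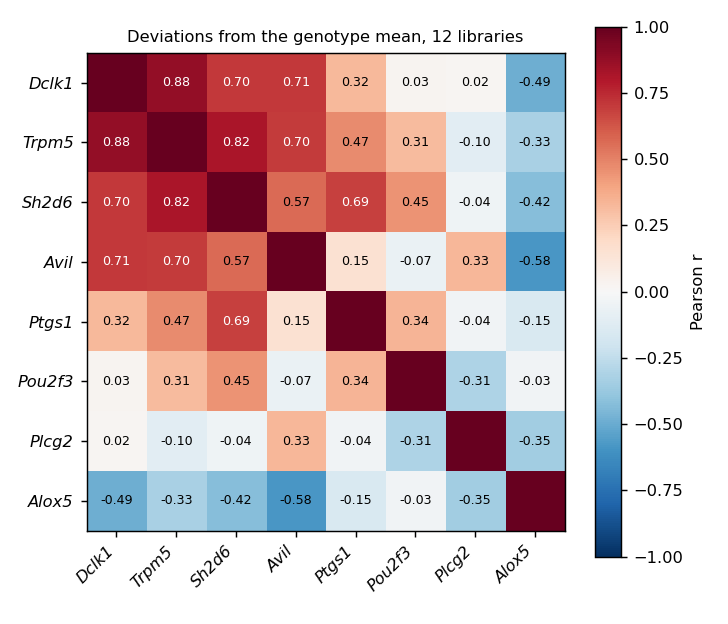
Pearson r (colour and number) between the log2 CPM of 8 tuft cell genes over 12 libraries, with each genotype's mean removed. Dclk1, Trpm5, Sh2d6 and Avil have r between 0.57 and 0.88 and Alox5 is below 0 against every other gene, while without the 3 libraries rich in mitochondrial-like rows Avil and Sh2d6 gave 0.20 and Alox5 was above 0 with 6 of the 7 others.

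The genes most like the members were sought by the correlation of their deviations from the genotype mean with the mean standardised deviation of the 8 members, over 12 libraries. Of the 10 closest among 13881 genes, 4 are predicted genes. The others were Dlec1 (r = 0.924), Preb (r = 0.924), Unc45a (r = 0.892), Spag17 (r = 0.890), Rrnad1 (r = 0.882) and Ccnl2 (r = 0.882). None of the 10 was in the list of other tuft cell markers. The 22 markers of that list that were tested had a median r of 0.25, against -0.02 for all genes, with 16 of 22 above 0. Il25, the tuft cell cytokine, had an r of 0.672, which placed it at rank 742 of the 13881 genes. The farthest of these markers were Tmem176a (r = -0.49) and Nrep (r = -0.51). These genes were counted in the same libraries as the members, and the part of depth and of the mitochondrial-like share in these correlations was not tested.

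Of 27 other markers of tuft cells 22 were tested and 0 were called, with a median log2 change of -0.04. At an unadjusted p under 0.05, 2 were lower in Sgo1-/+, against 5.08% of all genes tested. They were Matk, a Csk-type kinase, with a log2 change of -0.88 ± 0.31 (SE, edgeR unadjusted p = 0.0125, adjusted p = 0.481), and Kctd12, an auxiliary subunit of GABA-B receptors, with -0.42 ± 0.18 (unadjusted p = 0.0350, adjusted p = 0.500). Matk ran from 2.79 to 6.00 CPM in Sgo1-/+ and from 4.04 to 11.8 CPM in wild type. Il25 ran from 2.48 to 4.85 CPM in Sgo1-/+ and from 2.01 to 8.53 CPM in wild type, with a log2 change of -0.44 ± 0.33. Chat, which makes acetylcholine, stayed at or under 1.15 CPM in Sgo1-/+ and 1.87 CPM in wild type and was not tested.

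The cascade from taste receptors to Trpm5 was followed in 10 genes, of which 5 were tested and 0 were called. Among the 5, 1 was lower in Sgo1-/+ at an unadjusted p under 0.05, against 5.08% of all genes tested. That one was Itpr2, an inositol trisphosphate receptor that releases stored calcium, at 55.2 to 91.5 CPM in Sgo1-/+ and 66.6 to 115 CPM in wild type, with a log2 change of -0.47 ± 0.16 (edgeR unadjusted p = 0.00983, adjusted p = 0.478). Itpr3, the isoform of taste cells, had a log2 change of 0.21 ± 0.14, and Plcb2, the phospholipase that acts before it, 0.24 ± 0.36. Both receptors were above every tuft cell gene in CPM.

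The partners of Alox5 and Ptgs1 did not pass the test either. Of 16 genes of eicosanoid synthesis 11 were tested, with 0 called, 0 at an unadjusted p under 0.05 and a median log2 change of 0.0096. Ptgis, prostacyclin synthase, had a log2 change of -0.93 ± 0.58, Hpgds, which makes prostaglandin D2, 0.39 ± 0.26, and Tbxas1, thromboxane synthase, -0.58 ± 0.39. Ptgds was at 0 in every library, and Ptgs2, the inducible cyclooxygenase, did not exceed 0.924 CPM in Sgo1-/+ or 0.298 CPM in wild type. Of 12 eicosanoid receptors 4 were tested, with a median log2 change of 0.36 and 0 at an unadjusted p under 0.05. All 4 were above 0, Ptger1 barely so at 0.0019 ± 0.13, as were 6806 of all 13889 genes tested. Ptgdr2, a prostaglandin D2 receptor, stood at 0.73 ± 0.57, Ptger3, a prostaglandin E2 receptor, at 0.60 ± 0.31, and Ptger4 at 0.11 ± 0.15.

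For the type 2 immune circuit 10 of 16 genes were tested, with 0 called and a median log2 change of -0.0043. Among the 10, 2 were lower in Sgo1-/+ at an unadjusted p under 0.05, against 5.08% of all genes tested. Il4ra, the receptor chain through which interleukins 4 and 13 reach the epithelium, ran from 11.9 to 19.7 CPM in Sgo1-/+ and from 17.0 to 31.2 CPM in wild type. Its log2 change was -0.57 ± 0.18 (edgeR unadjusted p = 0.00637, adjusted p = 0.447). Rora, a nuclear receptor needed by innate lymphoid cells, stood at -0.79 ± 0.35 and Il1rl1, the receptor of interleukin 33, at -0.76 ± 0.44. Il4, Il5 and Il13, the cytokines of this circuit, did not exceed 0.297 CPM in Sgo1-/+ or 0.433 CPM in wild type and were too low to test at this depth.

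Of the regulators of tuft cell fate 5 of 8 found were tested, with 0 called and 0 at an unadjusted p under 0.05. Gfi1, a paralogue of Gfi1b that acts in secretory progenitors, had a log2 change of 0.58 ± 0.27 (edgeR unadjusted p = 0.0515, adjusted p = 0.519), Atoh1, the secretory master factor, 0.38 ± 0.27, and Sox4 -0.22 ± 0.17. Of 15 paralogues of the members 9 were tested with the same counts of 0, among them Vil1, the villin of the brush border, at -0.16 ± 0.10 and Trpm4 at -0.09 ± 0.09. Of 9 genes around Plcg2 in immune-type signalling 7 were tested, again with 0 called and 0 at an unadjusted p under 0.05. Inpp5d, a lipid phosphatase, stood at -0.62 ± 0.33 and the adaptor Blnk at -0.12 ± 0.13.

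Several members are also made by blood and immune cells, and several defining markers of these cells were low. Of the mast cell list, Cpa3 did not exceed 0.198 CPM in Sgo1-/+ or 0.533 CPM in wild type and Mcpt4 was at 0 in Sgo1-/+ and at most 0.298 CPM in wild type. The neutrophil genes S100a8 and S100a9 were at 0 in Sgo1-/+ and at most 0.192 CPM in wild type. The platelet gene Pf4 did not exceed 0.480 CPM in Sgo1-/+ or 0.298 CPM in wild type, and C1qa of macrophages ran from 0.462 to 2.48 CPM in Sgo1-/+ and from 1.01 to 1.94 CPM in wild type. Other genes of these lists were not low: Kit of the mast cell list reached 52.6 CPM in Sgo1-/+ and 38.2 CPM in wild type, and Ly6g of the neutrophil list 71.4 CPM in Sgo1-/+ and 80.2 CPM in wild type. Over the lists of epithelium, goblet, B, myeloid, neutrophil, mast, platelet, erythroid, fibroblast, smooth muscle, and neural and glial cells, 0 genes passed an unadjusted p of 0.05. In the colonocyte list Krt20 was lower in Sgo1-/+ (log2 change -0.43 ± 0.16), in the T cell list Cd3g was lower (-0.99 ± 0.34), and in the enteroendocrine list Insl5 (1.41 ± 0.41) and Sst (0.97 ± 0.37) were higher, each at an unadjusted p under 0.05 and with 0 called. Over all genes tested 9.65% had an unadjusted p under 0.05, with 5.08% lower and 4.56% higher in Sgo1-/+.

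The summed tuft cell genes stood at 40.0 to 59.1 CPM in Sgo1-/+ and 43.3 to 78.9 CPM in wild type. Within each genotype they were highest in the libraries rich in mitochondrial-like rows, with 59.1 CPM in Sgo1-/+ replicate 3 and 71.6 and 78.9 CPM in wild type replicates 3 and 5, against 40.0 to 55.3 CPM in the other Sgo1-/+ and 43.3 to 61.0 CPM in the other wild type libraries. The list of other tuft cell markers held 140 CPM in Sgo1-/+ replicate 3, below the 146 to 163 CPM of the other Sgo1-/+ libraries. In wild type replicates 3 and 5 it held 176 and 190 CPM, above the 154 to 167 CPM of the others. Sums of some other lists were high in the 3 rich libraries and those of others low. The enteroendocrine list held 226 CPM in the Sgo1-/+ one and 350 and 318 CPM in the wild type ones, against 381 to 530 CPM in the other Sgo1-/+ and 361 to 549 CPM in the other wild type libraries. The mast cell list, mostly Kit, held 11.3 CPM in the Sgo1-/+ one and 13.6 and 22.7 CPM in the wild type ones, against 24.8 to 55.0 CPM in the other Sgo1-/+ and 26.1 to 39.1 CPM in the other wild type libraries. The neural and glial list, of which 2 of 9 genes were tested, held 45.7 CPM in the Sgo1-/+ one and 44.5 and 74.1 CPM in the wild type ones, against 6.88 to 12.7 CPM in the other Sgo1-/+ and 9.39 to 31.2 CPM in the other wild type libraries. The myeloid list held 98.6 CPM in the Sgo1-/+ one and 112 and 130 CPM in the wild type ones. Most came from Mrc1, with 74.6 CPM in Sgo1-/+ and 91.5 and 105 CPM in wild type. In the other libraries the myeloid list held 29.6 to 63.5 CPM in Sgo1-/+ and 35.1 to 66.7 CPM in wild type. The platelet list held 70.4 CPM in the Sgo1-/+ one and 80.9 and 63.2 CPM in the wild type ones. Most came from Gp1bb, with 66.7 CPM in Sgo1-/+ and 73.6 and 56.5 CPM in wild type. In the other libraries the platelet list held 6.40 to 20.2 CPM in Sgo1-/+ and 9.67 to 16.8 CPM in wild type. The part of these differences in the levels of Dclk1 and Avil was not tested.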

How the data were processed

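Libraries of mucosal mRNA were made with a TruSeq kit and read on a MiSeq, per the labels' protocols. The submitters' processing notes name mm10 and DESeq. Which aligner and counter were used, and whether strand was, is not stated in the sources at hand. The values analysed are the deposited expected counts in the raw column of each sample, of which 69.6% of those above 0 were not whole (tolerance 0). The deposited log2 values beside them were not used. Rows that lack an Ensembl identifier (505 rows, 1.79% to 5.40% of counts) were dropped. Depth ran from 5711553 to 10198304 counts, and a level of 1 CPM therefore stands for few reads.

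Counts were rounded and fitted with edgeR 4.0.16 in R 4.3.3 (TMM, filterByExpr at a minimum count of 10 and total of 15, quasi-likelihood test with Benjamini-Hochberg adjustment, threshold 0.05), over all 13889 genes and 12 libraries. DESeq2 1.42.0 and limma-voom (limma 3.58.1) served as alternatives (39 genes had no adjusted p in DESeq2). Log2 CPM for the correlations and for Sgo1 used a prior count of 2, and Sgo1 was compared by exact permutation over 924 splits. The SE is the absolute log2 change divided by the square root of F. Mitochondrial-like rows are 11 genes whose transcripts match 37 mitochondrial transcripts in blastn 2.17.0 at 50% coverage and 80% identity. No 2 libraries of a genotype agreed within sampling noise (chi-square per degree of freedom at least 16.7).

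The members, the gene lists and the tests were chosen with earlier results of these data known. Named genes are Sgo1, the 9 members, in each list up to 3 genes of smallest p (mean count 5 or more), and the 10 genes most like the members. Genes with predicted names are only counted, and other genes of a list are named where their level describes the list. No protein sequence was used here, and Pou2f3 is not in the promoter table. A gene that the naming rule takes is not reported here.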

Additional observations from a re-analysis of the deposited data

Results flagged for a closer look

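Among 18 sets of 6 libraries, 1 for each tuft cell gene and genotype, 2 held a library that stood apart by Dixon's test, in which the gap to the nearest library over the whole range had to exceed 0.625. Chance gives about 1 in 20 such sets. For Ptgs1 it was wild type replicate 5, with 5.87 CPM and a gap of 0.640 of the range. For Plcg2 it was wild type replicate 3, with 9.55 CPM and a gap of 0.765 of the range. Both are among the 3 libraries with the highest share of mitochondrial-like rows, at 40.7% and 42.6%, and the part of that share in these levels was not tested.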

How the results depend on the processing

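Each of the 8 tuft cell genes tested was fitted under 22 alternatives, and in 164 of 176 such fits the direction stayed and in 0 was the gene called. Dclk1, Avil, Trpm5 and Pou2f3 kept their direction in every one. The 12 reversals were of Alox5, Ptgs1, Sh2d6 and Plcg2. Scaled by total counts alone, which moved the median of all genes by 0.31, Alox5 stood at 0.14, Ptgs1 at 0.031, Sh2d6 at 0.20 and Plcg2 at 0.19. On the same scale Dclk1 stood at -0.16 (edgeR unadjusted p = 0.478) and Avil at -0.27 (edgeR unadjusted p = 0.333). Trpm5 stood at 0.57 (edgeR unadjusted p = 0.0259, adjusted p = 0.378). Relative to the shift of the median, Alox5, Ptgs1, Sh2d6 and Plcg2 stood at -0.17, -0.28, -0.11 and -0.13. Dclk1 then stood at -0.47, Avil at -0.58 and Trpm5 at 0.25. In the 4 libraries with the header suffix Ptgs1 stood at 0.66 and Sh2d6 at 0.21. Without the 3 libraries rich in mitochondrial-like rows Sh2d6 stood at 0.0088 and Plcg2 at 0.016, and 0 correlated pairs passed. With 1 library left out, Alox5 ranged from -0.28 to 0.030 (0.030 when wild type replicate 1 was left out, 0.017 when Sgo1-/+ replicate 4 was) and Sh2d6 from -0.29 to 0.055 (0.055 when wild type replicate 5 was left out, 0.0081 when Sgo1-/+ replicate 4 was). The cause was not tested. Over all genes, DESeq2 called 30 and the fit of the 4 suffixed libraries 1, against 0. The count at an unadjusted p under 0.05 was 2507 without a filter, 2031 in the suffixed libraries, 617 in the others and 881 (without Sgo1-/+ replicate 5) to 2601 (without Sgo1-/+ replicate 3) with 1 library left out, against 1340. With 1 library left out the Sgo1 difference was lowest, at -0.69, without wild type replicate 1 (exact permutation p = 0.00649). It was nearest to 0, at -0.29, without wild type replicate 2 (exact permutation p = 0.251). With total counts alone the Sgo1 difference was -0.18 (exact permutation p = 0.673). With the replicate number as a block 0 genes were called and 1706 were at an unadjusted p under 0.05. Same-numbered samples correlated at -0.298 to 0.454, 2 of 6 over 0.1 and 0 best with their own number. The highest value was that of replicate 3, whose library is rich in mitochondrial-like rows in both genotypes. What a shared number means is not stated in the sources used here. These correlations cannot decide it, since they also carry other differences between libraries. Genes under about 1 CPM, Gfi1b among them, are limited by depth.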
